A study of Homo sapiens with 6 samples.

Results

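The IL-6 family cytokines, their receptor chains and the transcription factor STAT3 were followed in RNA of PANC-1, a human pancreatic carcinoma cell line of epithelioid type, through 10 genes looked up by symbol among 60835 distinct symbols. These were the ligand genes IL6, IL11 and LIF, the receptor genes IL6R, IL6ST, LIFR and OSMR, STAT3 itself, and 2 genes that STAT3 is known to induce, SOCS3 and SERPINA3. Both groups lacked endogenous SMAD4 by knockout, and they received SMAD4 back by transfection. One received the R272K form, in which a lysine replaces an arginine, and the other received wild-type (WT) SMAD4. The groups had 3 libraries each, collected on day 3. Knockout cells without introduced SMAD4 were not analysed here, and the labels give neither the vector nor the clone number. The replicate labels do not name separate cultures, so the spread on which the p-values rest may be technical.

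Cytokines of the IL-6 family signal through a shared chain, gp130, encoded by IL6ST. IL-6 and IL-11 first bind their own receptor subunit, whereas LIF and oncostatin M use the chains encoded by LIFR and OSMR together with gp130. The bound JAK kinases phosphorylate STAT3, which enters the nucleus and induces acute-phase genes and its own inhibitor SOCS3. In pancreatic cancer this route is known both for IL-6 and LIF from stromal cells and for a response within the tumour cells. SMAD4, the common partner of the receptor-regulated SMADs, carries TGF-β and BMP signals to the same nucleus. The study's title names arginine methylation of SMAD4 by PRMT1, and the comparison sets a form that lacks one arginine against the WT protein.

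With R272K SMAD4, STAT3 and the acute-phase protease inhibitor gene SERPINA3 were higher, and IL6 was barely detected. STAT3 averaged 320 ± 1.53 CPM in R272K cells and 263 ± 6.85 CPM in WT cells (SD, n = 3 each), where CPM are counts scaled to a common library size. SERPINA3 averaged 3.27 ± 0.594 CPM in R272K cells and 1.4 ± 0.148 CPM in WT cells. IL6 had 1 read over the 3 R272K libraries and 22 over the 3 WT libraries. Of the 10 genes, 9 had enough reads to be tested by edgeR's quasi-likelihood test, and IL6 did not. Of these 9, 2 were higher at an adjusted p below 0.05, 0 were lower and 7 were not called. Over all 15911 genes tested, 0.685% were called higher, 0.528% lower and 1.21% in either direction. The median log2 fold change was 0.08 for the 9 genes and 0.00 for all genes. RNA from whole cultures does not tell fewer cells of a kind apart from less RNA per cell.

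SMAD4 transcript averaged 43.3 ± 2.56 CPM in R272K cells and 88.7 ± 5.13 CPM in WT cells (SD, n = 3 each). Counts by symbol do not separate introduced SMAD4 transcript from any transcript left from the knocked-out gene. The amount of SMAD4 and the substitution cannot be told apart in any of the differences given here. Depth over distinct symbols was 15148435 to 15406781 counts in the R272K libraries and 14776148 to 17706201 in the WT libraries. WT replicate 1 stood apart from the other libraries on the first principal component, and the longer a gene, the lower it tended to be there against the remaining WT libraries (rho -0.41, Spearman, over genes, which are no replicates). All 5 epithelial markers were above 1 CPM, with sums of 3801 to 4110 CPM in R272K libraries and 3025 to 3767 CPM in WT libraries. KRT8, the highest, averaged 2795 CPM with R272K and 2237 CPM with WT. CDH1, the gene of E-cadherin, was the one marker of the 5 called, at 6.47 ± 0.313 CPM with R272K and 2.59 ± 0.49 CPM with WT (log2 fold change 1.33, edgeR adjusted p = 0.00174). KRT19 was at -0.10 (adjusted p = 0.633), and both were named after their values were seen. The part of these differences in the results was not tested. The 5 acinar and endocrine markers summed to at most 0.459 CPM with R272K and 0.197 CPM with WT (highest gene PRSS1, 0.109 and 0 CPM). The fibroblast markers summed to at most 2.28 CPM with R272K and 1.64 CPM with WT (LUM, 0.395 and 0.334 CPM). The leukocyte markers reached 3.68 CPM with R272K and 3.71 CPM with WT (CD14, 2.96 and 2.79 CPM), and the endothelial markers 6.56 CPM with R272K and 7.86 CPM with WT (KDR, 5.24 and 5.74 CPM).

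IL6 encodes the founding cytokine of the family (ENSG00000136244, chromosome 7, 22725884 to 22732002, plus strand, GRCh38). Its raw counts were 0, 0 and 1 in R272K replicates 1 to 3, against 11, 5 and 6 in WT replicates 1 to 3. The groups did not overlap, with every WT library above every R272K library. Scaled for library size, the summed counts gave a ratio of 0.0474 of R272K over WT, with an exact 95% interval of 0.00115 to 0.293 that covers counting error only. A two-sided exact permutation test over the libraries gave p = 0.1, the smallest p that 3 against 3 allows. With so few reads IL6 fell below the expression filter. When the filter was lifted, edgeR's quasi-likelihood test placed it lower (adjusted p = 0.0253, 1.29% of all genes called). The log2 fold change was -3.96 (SE 1.08), a value that depends on the prior count. Its 95% interval, -6.08 to -1.84, had the width of a normal distribution. The p-value therefore leaves out the uncertainty of a spread taken from 3 libraries per group. By the same test SMAD4 had an adjusted p of 3.54e-33 in that fit, against 6.28e-06 with the filter, at log2 fold changes of -1.04 and -1.03. An antisense gene, IL6-AS1, shares 428 exon bases with IL6 and was listed at 0 counts in every library. STEAP1B, on the opposite strand, shares 46 exon bases with it. It had 70, 78 and 72 counts in the R272K libraries, against 116, 78 and 78 in the WT libraries. The sources used here do not give the strand setting of the counting. Without it, reads cannot be assigned between a gene and its antisense partner, which LIF (LIF-AS1, LIF-AS2), LIFR (LIFR-AS1) and IL6ST (AC008914.1) also have.

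The 250 bases before the RefSeq start of IL6 (GRCh38.p14, chr7:22726950-22727199, plus strand) are shown because IL6 had the largest relative difference among the 10 genes. Capitals mark a match to the NF-κB motif.
IL6: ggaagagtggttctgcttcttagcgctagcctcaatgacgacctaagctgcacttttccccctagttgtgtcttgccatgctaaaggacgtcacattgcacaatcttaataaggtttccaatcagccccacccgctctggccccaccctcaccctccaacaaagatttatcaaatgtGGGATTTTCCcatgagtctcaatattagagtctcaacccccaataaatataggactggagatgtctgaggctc
The capitals lie 73 to 64 bases before the start. The motif searched was GGGNN followed by TTTCC, on both strands, and 1.73% of 35116 RefSeq windows of this length hold it.

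The other ligand genes did not separate the groups in this test. LIF encodes leukaemia inhibitory factor and was by far the most abundant of the 3 ligands. Per length, LIF stood at 187, 184 and 188 TPM in the R272K libraries, against 167, 184 and 189 TPM in the WT libraries, where TPM is the authors' length-scaled abundance. The TPM ranges overlapped, and WT replicate 1 was the lowest of the 6 libraries. In CPM the R272K libraries, at 228 to 230, all lay above the WT libraries, at 221 to 226, but the log2 fold change was only 0.03 (95% interval -0.09 to 0.15, edgeR adjusted p = 0.842). IL11, a cytokine that TGF-β is known to induce, had 31, 33 and 34 counts with R272K SMAD4, against 45, 26 and 32 with WT. Its groups overlapped, and the log2 fold change was 0.00 with a wide 95% interval of -0.50 to 0.50 (edgeR adjusted p = 0.995).

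**Figure D1:**
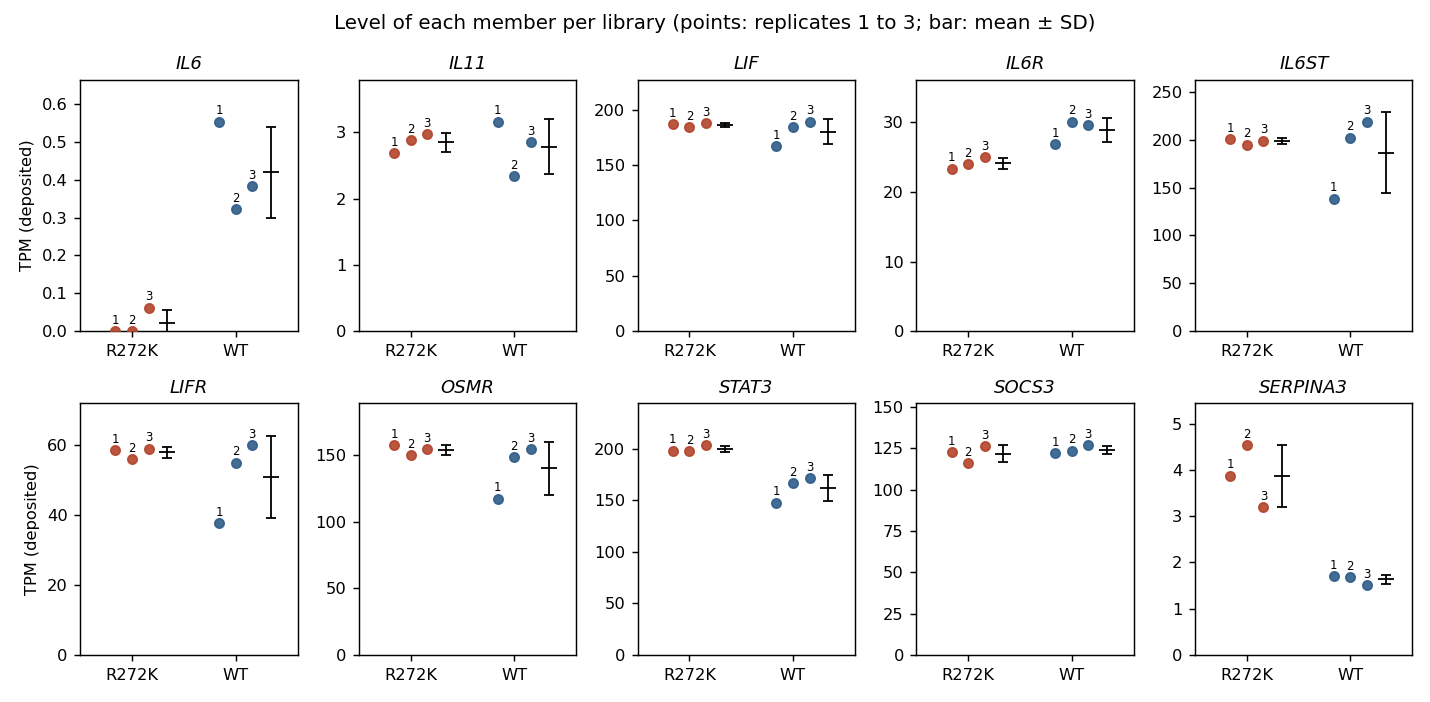
Deposited TPM of each of the 10 genes in each library, with R272K left and WT right in every panel; points are replicates 1 to 3, the bar beside them is the mean ± SD, and each vertical axis starts at 0. STAT3, SERPINA3, IL6R and IL6 separate the groups. WT replicate 1 is the lowest library for STAT3, LIF, IL6ST, LIFR and OSMR.

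The receptor genes were led by IL6ST, the shared signalling chain. IL6ST stood at 201, 195 and 199 TPM in the R272K libraries, against 138, 202 and 219 TPM in the WT libraries. WT replicate 1 was the lowest of all 6, and the other WT libraries lay above every R272K library. The log2 fold change was 0.08 (SE 0.103, 95% interval -0.14 to 0.30, edgeR adjusted p = 0.775), and without WT replicate 1 it was -0.063.

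LIFR, the chain that binds LIF, and OSMR, the chain for oncostatin M, followed the same order of libraries within WT. LIFR stood at 58.7, 56.1 and 59.0 TPM with R272K SMAD4, against 37.8, 55.0 and 60.0 TPM with WT. OSMR stood at 158, 150 and 155 TPM with R272K SMAD4, against 118, 149 and 155 TPM with WT. Neither was called, with log2 fold changes of 0.18 for LIFR (95% interval -0.05 to 0.40, adjusted p = 0.472) and 0.12 for OSMR (95% interval -0.03 to 0.28, adjusted p = 0.475). In the fit without WT replicate 1 they were 0.03 and 0.05. OSMR shares 229 exon bases with RICTOR on the opposite strand.

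**Figure D2:**
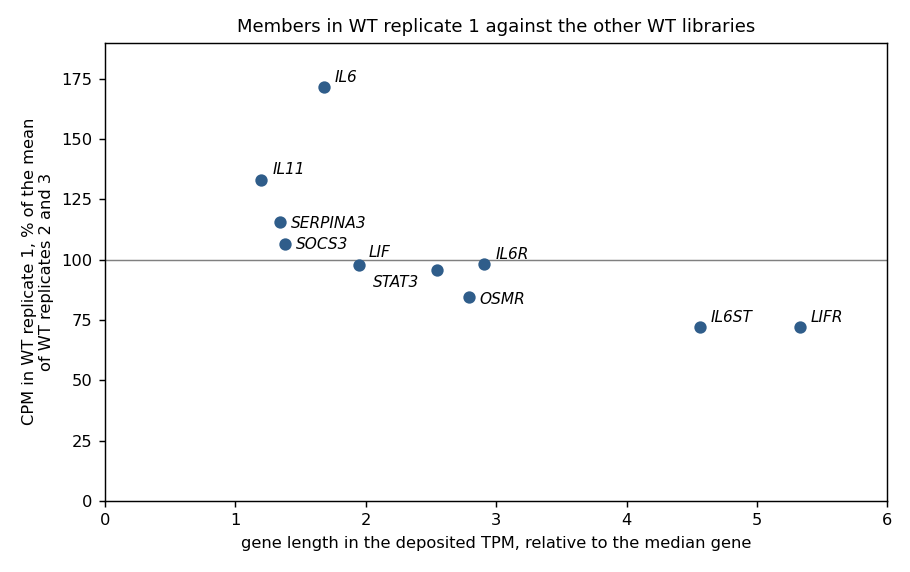
Level of each of the 10 genes in WT replicate 1, as a percentage of the mean of WT replicates 2 and 3 in CPM, against the gene length used in the deposited TPM relative to the median gene. IL6ST and LIFR, the longest, are each at 71.9%, and IL6R is at 98.2%.

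The receptor chains differed in how far WT replicate 1 departed from the other WT libraries. In that library LIFR and IL6ST, with relative lengths of 5.33 and 4.56, were each at 71.9% of the mean of the other WT libraries in CPM. OSMR was at 84.7%, STAT3 at 95.6% and IL6R at 98.2%, with relative lengths of 2.79, 2.55 and 2.91. The shorter genes SOCS3, SERPINA3 and IL11 were at 107%, 116% and 133% of it. LIF and IL6, with relative lengths of 1.95 and 1.68, were at 97.9% and 172% of it, IL6 with 11 counts in WT replicate 1. The part of gene length in these values was not tested.

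IL6R encodes the subunit that binds IL-6 itself (chromosome 1, 154405193 to 154469450, plus strand, GRCh38). It was the one receptor gene of the 4 whose groups did not overlap in TPM. Its level was 23.3, 24.0 and 24.9 TPM in the R272K libraries, against 26.9, 30.1 and 29.6 TPM in the WT libraries. In CPM it averaged 44.1 ± 1.12 in R272K cells and 53.5 ± 1.15 in WT cells (SD, n = 3 each). The log2 fold change of -0.28 (SE 0.068, 95% interval -0.43 to -0.13) did not pass the threshold (edgeR adjusted p = 0.0749). Without WT replicate 1 it was called lower (log2 fold change -0.29, adjusted p = 0.00494), in a fit that called 5.36% of all genes. It was also called when each library's trend with gene length was removed (-0.31, adjusted p = 0.007), where 3.89% of all genes were called.

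Between the receptor chains the ratios within a library were also taken, since they do not depend on scaling between libraries. A trend with gene length that differs between libraries does not cancel in them. These pairs were chosen after their values were seen. The TPM ratio of IL6R to IL6ST was 0.116, 0.123 and 0.125 in the R272K libraries, against 0.194, 0.149 and 0.135 in the WT libraries. It was highest in WT replicate 1, where IL6ST was at 71.9% and IL6R at 98.2% of the other WT libraries in CPM. All R272K libraries lay below all WT libraries, and a two-sided exact permutation test gave p = 0.1, the smallest possible here. The ratio of LIFR to IL6ST was 0.292, 0.288 and 0.297 with R272K SMAD4, against 0.273, 0.272 and 0.274 with WT. Although both genes were low in WT replicate 1, their ratio there was as in the other WT libraries. The groups of this ratio did not overlap (exact permutation p = 0.1), a log2 difference of 0.10. The ratios of OSMR to IL6ST (exact permutation p = 0.8) and of LIFR to OSMR (exact permutation p = 0.7) overlapped between the groups. How often the ratios of other gene pairs separate the groups was not tested.

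STAT3, the transcription factor on which these receptors converge (ENSG00000168610, chromosome 17, 42313324 to 42388540, minus strand, GRCh38), was higher with R272K SMAD4. In CPM it stood at 319, 320 and 322 in R272K replicates 1 to 3, against 255, 266 and 268 in WT replicates 1 to 3. The R272K libraries lay close together and above all WT libraries. The log2 fold change was 0.29 (SE 0.057, 95% interval 0.16 to 0.41, edgeR adjusted p = 0.0281). Per length it averaged 200 ± 3.04 TPM in R272K cells and 162 ± 12.5 TPM in WT cells, with WT replicates 1 to 3 at 148, 166 and 172 TPM. Without WT replicate 1 the log2 fold change was 0.26 (adjusted p = 2.18e-05), in a fit that called 5.36% of all genes. STAT3 lost its call when any 1 R272K library or WT replicate 2 was left out, with values of 0.28 to 0.29 and adjusted p of 0.135 to 0.207. Of all genes, 0.362%, 0.367% and 0.337% were called without R272K replicates 1, 2 and 3, 0.512% without WT replicate 2 and 1.69% without WT replicate 3. STAT3 and SERPINA3 were both called by DESeq2 (1.75% of all genes called), by limma-voom (1.23%), with a replicate block (1.65%), with a filter of 1 CPM in 3 libraries (1.31%), and with scaling by RLE or upper quartile (1.24% each) or by library size only (1.34%). Neither was called by limma on log2(TPM + 1) (0.339% of all genes called; 0.101% without a filter) or on log2(TPM + 0.1) (0.306%).

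The promoter of STAT3 is shown as that of a gene called higher, for the 250 bases before its RefSeq start (GRCh38.p14, chr17:42388443-42388692, minus strand). It held no match to the NF-κB motif, to the STAT motif TTCNNNGAA or to the AP-1 motif TGANTCA, so it has no capitals.
STAT3: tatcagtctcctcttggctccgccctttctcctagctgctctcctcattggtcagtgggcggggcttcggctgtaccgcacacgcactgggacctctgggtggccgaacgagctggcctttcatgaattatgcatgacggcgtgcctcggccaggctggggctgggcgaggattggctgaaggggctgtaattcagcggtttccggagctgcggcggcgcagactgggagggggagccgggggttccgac
The short SMAD motif CAGAC occurs in it 31 to 27 bases before the start, as it does on either strand in 38.0% of all RefSeq windows of this length.

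The neighbours of STAT3 on chromosome 17, STAT5A and STAT5B, picked with their values in view, were not called, with log2 fold changes of 0.08 (adjusted p = 0.776) and -0.04 (adjusted p = 0.812).

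SERPINA3 encodes α1-antichymotrypsin, an acute-phase inhibitor of serine proteases (ENSG00000196136, chromosome 14, 94612384 to 94624055, plus strand, GRCh38). Raw counts were 50, 58 and 41 in R272K replicates 1 to 3, against 27, 21 and 19 in WT replicates 1 to 3. In CPM these were 3.28, 3.86 and 2.67 with R272K SMAD4, against 1.54, 1.42 and 1.24 with WT. The groups were well apart, although the R272K libraries varied more among themselves than the WT libraries. The log2 fold change was 1.21 (SE 0.236, 95% interval 0.70 to 1.72, edgeR adjusted p = 0.0244). Leaving out any 1 R272K library or WT replicate 2 took the call away, with values of 1.08 to 1.34 and adjusted p of 0.058 to 0.165. Without WT replicate 1 it stayed called (1.29, adjusted p = 0.00462), where 5.36% of all genes were called. Among the 10 genes, exons shared with another gene on the same strand were found for SERPINA3 alone, with AL049839.2, which had at most 2 counts in any library. The shared stretch is 1592 bases, or 31.8% of the exon bases of SERPINA3. The sources used here do not say how reads in it were counted.

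The 250 bases before the RefSeq start of SERPINA3 (GRCh38.p14, chr14:94612141-94612390, plus strand) are printed as those of the gene with the largest fold change among the 9 tested. None of the 4 motifs was found in them.
SERPINA3: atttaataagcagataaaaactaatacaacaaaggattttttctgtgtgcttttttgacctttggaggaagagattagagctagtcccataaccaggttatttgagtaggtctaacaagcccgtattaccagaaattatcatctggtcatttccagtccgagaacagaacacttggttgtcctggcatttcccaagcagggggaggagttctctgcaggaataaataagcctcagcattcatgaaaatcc
Over the 9 genes with a RefSeq window, which leaves out LIF, the STAT motif was found in LIFR alone, in 2 of its 3 windows, against 6.57% of all windows. The AP-1 motif was found in IL11 alone, also against 6.57% of all windows. CAGAC was found in IL6, IL11, LIFR, STAT3 and SOCS3. Matches were sought on both strands and none of the matches in these genes overlapped another. A match describes letters and is not a binding site.

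SOCS3, which STAT3 induces and which blocks gp130 and JAK kinases in return, did not separate the groups. It stood at 123, 116 and 126 TPM in the R272K libraries, against 122, 124 and 127 TPM in the WT libraries. The ranges overlapped. The log2 fold change was -0.05 (SE 0.064, 95% interval -0.19 to 0.09, edgeR adjusted p = 0.771). The interval for SOCS3 lay below that for STAT3, but the difference between the genes was not tested.

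**Figure D3:**
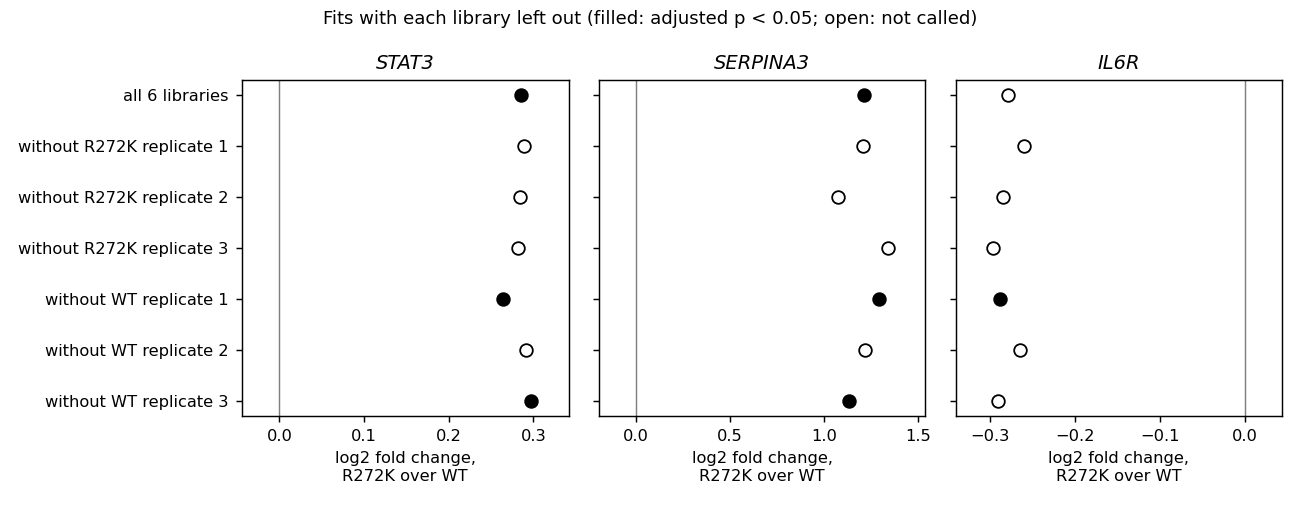
Log2 fold change of R272K over WT for STAT3, SERPINA3 and IL6R in the fit on all 6 libraries and with each library left out; filled points have an adjusted p below 0.05. The sign is the same in every fit, and without WT replicate 1 all 3 genes are called, as are 5.36% of all genes.

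Set side by side per length, the 10 genes spanned a wide range. In R272K cells the order by mean TPM was STAT3 at 200, IL6ST at 198, LIF at 186, OSMR at 154, SOCS3 at 122, LIFR at 57.9, IL6R at 24.1, SERPINA3 at 3.87, IL11 at 2.85 and IL6 at 0.0209. Among neighbours in that order the ranges over libraries overlapped only between STAT3 and IL6ST. In WT cells the order was IL6ST at 186, LIF at 180, STAT3 at 162, OSMR at 140, SOCS3 at 124, LIFR at 50.9, IL6R at 28.9, IL11 at 2.78, SERPINA3 at 1.63 and IL6 at 0.42. There each of the first 4 genes overlapped the next one down. STAT3 thus stood first in R272K cells and behind IL6ST and LIF in WT cells, and SERPINA3 and IL11 changed places. In both groups IL6ST, OSMR and LIFR all stood above IL6R, the subunit for IL-6, and LIFR was the nearest to it.

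Groups that did not overlap in CPM were found for STAT3, SERPINA3, LIF and OSMR on the higher side and IL6R on the lower side, 5 of the 9 tested. Over all genes tested, 10.9% were without overlap on the higher side and 10.4% on the lower side. An unadjusted p under 0.05 was reached by 3 of the 9, IL6R, STAT3 and SERPINA3, against 14.3% of all genes.

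The rest of the pathway was read from 4 lists of textbook members with 52 genes, of which 38 were tested. None of the 38 was called by edgeR's test, against 1.21% called among all genes. An unadjusted p under 0.05 was reached by 8 of them, against 14.3% of all genes. That share also stands beside the counts given for each list below. DESeq2 called 1 of them, CEBPB (1.75% of all genes called), and limma-voom called 0 (1.23%). The median log2 fold change of the 38 was -0.02.

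Among 11 other ligands and receptor chains, 8 were tested and none was called by edgeR's test, with 2 at an unadjusted p under 0.05. DESeq2 and limma-voom also called 0 of them. IL31RA, a receptor chain encoded next to IL6ST on chromosome 5, stood at 34.1, 33.6 and 35.6 CPM with R272K SMAD4, against 36.9, 45.2 and 43.6 CPM with WT (log2 fold change -0.28, adjusted p = 0.154). It was called lower without WT replicate 1 (adjusted p = 0.000913), in the fit that called IL6R and 5.36% of all genes. CLCF1, a ligand of the CNTF receptor, stood at 8.8, 6.85 and 8.73 CPM with R272K SMAD4, against 10.2, 11.1 and 10.5 CPM with WT (-0.38, adjusted p = 0.199). OSM, the ligand of OSMR, also picked with its values in view, had at most 4 counts in any library and was not tested.

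The 5 kinases and other STATs were all tested, and none was called by edgeR's test, DESeq2 or limma-voom, with 2 at an unadjusted p under 0.05. JAK1, the main kinase bound to gp130, stood at 497, 507 and 513 CPM in the R272K libraries, against 385, 456 and 470 CPM in the WT libraries (0.21, adjusted p = 0.213). Its groups did not overlap, and WT replicate 1 was again the lowest library. Without WT replicate 1 it was called higher at 0.13 (adjusted p = 0.0362, 5.36% of all genes called). TYK2, another kinase of the JAK family that binds gp130, stood at 74.6, 69.0 and 73.8 CPM with R272K SMAD4, against 66.2, 63.9 and 66.6 CPM with WT (0.14, adjusted p = 0.350). Its groups did not overlap either.

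Of 11 inhibitors and shedding enzymes, 10 were tested, and none was called by edgeR's test, by DESeq2 or by limma-voom, with 2 at an unadjusted p under 0.05. ADAM10, a metalloprotease that can release the IL-6 receptor from the cell surface, stood at 251, 252 and 257 CPM with R272K SMAD4, against 190, 220 and 233 CPM with WT (0.24, adjusted p = 0.151). SOCS2, a relative of SOCS3 that acts mainly on growth hormone signalling, stood at 42.3, 42.5 and 45.7 CPM with R272K SMAD4, against 50.2, 47.5 and 50.6 CPM with WT (-0.18, adjusted p = 0.262). Neither group pair overlapped. ADAM10 was called higher without WT replicate 1, at 0.16 (adjusted p = 0.0168, 5.36% of all genes called).

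**Figure D4:**
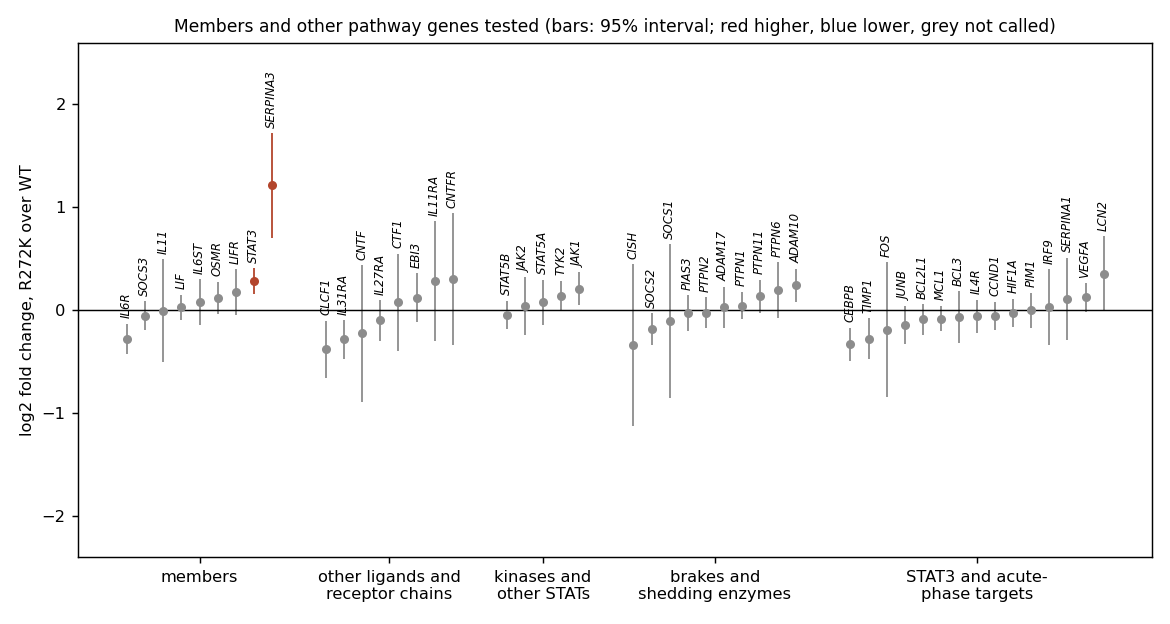
Log2 fold change of R272K over WT with its 95% interval for the 9 tested genes and for the 38 tested genes of 4 further pathway lists, sorted within each group; red is called higher and grey not called. STAT3 and SERPINA3 are called higher, and none of the 38 is called.

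STAT3 and acute-phase targets were tested for 15 of 25 listed genes, and none was called by edgeR's test, with 2 at an unadjusted p under 0.05. DESeq2 called 1, CEBPB, and limma-voom called 0. CEBPB, the transcription factor that acts with STAT3 on acute-phase genes, stood at 101, 102 and 108 CPM with R272K SMAD4, against 140, 134 and 117 CPM with WT. The groups did not overlap, and the log2 fold change of -0.33 lay just outside the threshold (edgeR adjusted p = 0.0515). CEBPB was called lower in 7 of 18 alternatives, among them the fits without WT replicate 1 (-0.27, adjusted p = 0.00121) and without WT replicate 3 (-0.40, adjusted p = 0.0108). Of all genes, 5.36% were called without WT replicate 1 and 1.69% without WT replicate 3. TIMP1, an inhibitor of metalloproteases, stood at 109, 104 and 113 CPM with R272K SMAD4, against 154, 120 and 121 CPM with WT (-0.27, adjusted p = 0.182). Without WT replicate 1 TIMP1 was at -0.15 (adjusted p = 0.0872). With no expression filter it was called lower (adjusted p = 0.0242, 1.29% of all genes called), in the fit whose p-values are limited as said for IL6. Among other secreted proteins of the acute-phase response, all picked with their values in view, the fibrinogen genes FGA, FGB and FGG, HP and CRP had at most 3 counts in any library. SAA1 had 8, 15 and 9 counts with R272K SMAD4, against 6, 4 and 3 with WT. LBP had 2, 5 and 3 counts, against 0, 0 and 1. Neither pair of groups overlapped, at counts too low for a test. The groups overlapped for SAA2 (2, 3 and 7 counts, against 1, 2 and 0), LRG1 (4, 13 and 6, against 4, 5 and 5) and A2M (3, 1 and 0, against 0, 1 and 6), also untested. SERPINA1, which encodes α1-antitrypsin, had 49, 46 and 51 counts with R272K SMAD4, against 55, 41 and 45 with WT (0.11, adjusted p = 0.823). LCN2, a secreted lipocalin, stood at 8.73, 6.85 and 7.17 CPM with R272K SMAD4, against 7.36, 5.14 and 5.18 CPM with WT (0.35, adjusted p = 0.364), with overlapping groups. It was called higher without WT replicate 1, in the fit that called 5.36% of all genes. LCN2 was named after its values were seen.

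The likeness of other genes to 2 of the 10 was described by Pearson's r of log2 CPM over the 6 libraries, among 14493 genes with a mean of at least 1 CPM. The genes most like SERPINA3, which had the smallest p, were WDR19 (r = 0.995), FAM72B (0.995) and SERPINI1 (0.994). FAM72B has near-identical copies that can share its reads. None of these was called, with log2 fold changes of 0.18, 0.29 and 0.53. Those most like IL6ST, which had the highest mean TPM over all 6 libraries, were STK4 (0.998), FCHO2 (0.998) and FAT4 (0.997), none of them called. With 6 libraries and so many genes compared, values this near 1 are a ranking and nothing more. For IL6ST the points share the low level in WT replicate 1.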

How the data were processed

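Polyadenylated RNA was sequenced from 3 R272K and 3 WT libraries. Per the submitters' processing notes, reads were handled with HTSeq 0.10.0, SAMtools, HISAT2 2.1.0 and fastp 0.23.0 on GRCh38. The sources used here give no settings, strand or annotation release. The deposited table holds raw counts by symbol and TPM, a length-scaled signal. Symbols with several identifiers repeat their value (1875 extra lines), so each was used once, after which TPM sum to 1000000.

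After filterByExpr (minimum count 10, minimum total 15) and TMM scaling, edgeR's quasi-likelihood test was run in its robust form, two-sided, with Benjamini-Hochberg adjustment over all 15911 genes. Calls are at an adjusted p below 0.05. Log2 fold changes set R272K over WT, their SE is the size divided by the square root of F, and 95% intervals use the t distribution on the test's degrees of freedom. IL6 was compared by an exact conditional binomial interval, and ratios by exact permutation of libraries. Relative gene length is the ratio of count to TPM.

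The 10 genes and the pathway lists were chosen with earlier results of these data known. Some genes of the pathway lists are not reported here, and the counts leave them out. Named genes were the 10, SMAD4, called pathway genes, the 2 smallest p of each list, the highest gene of each marker list, and the 3 genes most like the member with the smallest p and the member with the highest TPM; others are said to be chosen after their values were seen. Alternatives were other scalings, filters, DESeq2, limma-voom, a replicate block, a length-trend offset (lowess, span 0.3), each library left out, and tests of log2(TPM + 1) or log2(TPM + 0.1) by limma. The edgeR script was tested on simulated data. It recovered 66% of genes changed 1.5-fold and 98% of those changed 4-fold, with 13 false calls among 186. Changes smaller than 1.5-fold were not simulated. Exon overlaps came from GENCODE 29 and promoters from RefSeq (GRCh38.p14). Software was DESeq2 1.42.0, limma 3.58.1, edgeR 4.0.16, R 4.3.3, Python 3.11.15, pandas 2.3.3 and matplotlib 3.10.9.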

Additional observations from a re-analysis of the deposited data

How the results depend on the processing

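STAT3 and SERPINA3 kept their direction in all 18 alternatives and were each called in 11 of them. Members called were 2 with all libraries and numbered 0 with limma on log2(TPM + 1), on log2(TPM + 0.1) or on log2(TPM + 1) without a filter. With 1 library left out they numbered 0 to 3, being 0 when WT replicate 2 or an R272K library was the one left out. Those fits called 55 to 84 of all genes. The 3 without WT replicate 1 were STAT3, SERPINA3 and IL6R.

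Pathway genes called, 0 with all libraries, numbered 1 with scaling by library size only, with DESeq2 and with the replicate block, 2 with no expression filter or with the gene length trend removed, and 0 with limma on log2(TPM + 1), with or without a filter, or on log2(TPM + 0.1). With 1 library left out they numbered 0 to 5, with 5 when it was WT replicate 1. All genes called, 193 with all libraries, numbered 474 with no expression filter (36623 genes tested), 619 with the gene length trend removed, 61 and 55 with limma on log2(TPM + 1) and log2(TPM + 0.1), 37 with limma on log2(TPM + 1) without a filter, and 55 to 875 with 1 library left out. Without WT replicates 1 and 3 they numbered 875 and 276. The cause of these changes was not tested.

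With 1 library left out IL6ST ranged from -0.063 (without WT replicate 1) to 0.178. IL11, at 0.00, changed sign to 0.0063 with upper quartile scaling, 0.0077 with limma-voom, 0.0073 with the replicate block, 0.0358 with the gene length trend removed, 0.029 with limma on log2(TPM + 1), with or without a filter, and 0.0403 on log2(TPM + 0.1). With 1 library left out it ranged from -0.13 to 0.15. None of these was called. Same-numbered libraries did not deviate together (correlations of -0.06, -0.01 and -0.01), so the numbers are not taken as pairs; with the replicate block 262 genes were called in all, and STAT3 (adjusted p = 0.037) and SERPINA3 (adjusted p = 0.0131) stayed called. Depth limits IL6, IL11 and SERPINA3, which had at most 58 counts in any library.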

Other observations

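The deposited annotation places 160 symbols in the JAK-STAT pathway, of which 92 were tested, and 3 were called higher and 4 lower by edgeR's quasi-likelihood test, against 0.685% and 0.528% of all genes. Beside STAT3 the higher ones were a receptor and a growth factor gene outside the IL-6 family. IL13RA1, a receptor chain for IL-13 and IL-4, stood at 316, 314 and 316 CPM in R272K replicates 1 to 3, against 251, 257 and 268 CPM in WT replicates 1 to 3 (log2 fold change 0.29, adjusted p = 0.0303). PDGFB, which encodes a chain of platelet-derived growth factor, averaged 186 ± 10.9 CPM in R272K cells and 151 ± 4.23 CPM in WT cells (SD, n = 3 each; 0.30, adjusted p = 0.0381). Genes called lower included the type III interferon genes IFNL1, IFNL2 and IFNL3, of which IFNL2 and IFNL3 are near-identical copies that can share reads. The annotation was looked up after the values of the 10 genes were seen.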
